A study of Mus musculus with 12 samples.

Results

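RNA captured by J2, a monoclonal antibody against double-stranded RNA, was compared with unselected input RNA in the small intestinal epithelium of control mice. The comparison rests on 4 of the 12 libraries of the series, chosen by their labels: 2 J2 immunoprecipitations and 2 inputs, 1 of each from the same 2 animals. The question it addresses is which RNA classes and genes the antibody enriches or depletes in epithelium that carries no induced mutation. The controls were adult females aged 3 months. They received vehicle (10% ethanol, 90% corn oil) intraperitoneally on 4 days and were sampled 2 days after the final dose. The other animals of the series lacked the lysine acetyltransferases Kat2a and Kat2b after tamoxifen and enter only where a fit of both genotypes is named. The alleles and any Cre driver carried by the controls are not given in the sources used here, and the group holds 2 animals in all. K1, another antibody against double-stranded RNA, gave 2 pulldowns of the same animals, which are set beside J2 where the antibodies are compared.

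Double-stranded RNA forms where an RNA folds back on an inverted copy of part of itself, or where transcripts of opposite strands pair. J2 recognises the duplex and not a particular sequence, and needs a helix of some length to bind. In mammalian cells such duplexes are known to arise from paired inverted repeats, often copies of short interspersed elements in 3′ untranslated regions and introns, and from mitochondrial DNA, both strands of which are transcribed nearly end to end. The cytosolic sensors of the innate immune system bind the same kind of structure.

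The titles call the cells whole-intestine epithelium, whereas the protocol describes the proximal part of the small intestine. Epithelium was released with EDTA over 50 min, lysed, spun, and the supernatant incubated with antibody, which was collected on protein G beads. Input RNA was purified with Trizol and chloroform, and pulldown RNA with a miRNeasy micro kit, so the purification and the pulldown cannot be told apart in any J2 against input value below. No pulldown with a nonspecific antibody was analysed here, and no spike-in is described, so each value is a share of a library and not an amount of RNA bound. The input libraries held 10307281 and 11474107 reads assigned to genes, and the J2 libraries 15359376 and 13308021. Reads outside genes made up 27.0% and 25.7% of the listed reads in input and 15.6% and 14.2% in J2. The 10 most abundant genes took 12.1% and 12.9% of the gene-assigned counts in input, against 6.75% and 7.19% in J2. All 10 markers of epithelium (such as Epcam, Cdh1 and Vil1) and all 15 of enterocytes had counts in every group, and their summed counts in input, scaled to the gene-assigned total of each library without TMM (a composition factor described below), were 8711 and 8873 CPM for epithelium and 46536 and 51018 CPM for enterocytes. On the same scale leukocyte markers summed to 2147 and 1843 CPM in input and to 571 and 548 CPM in J2. Markers of stroma and endothelium summed to 15.2 and 21.2 CPM in input and to 17.3 and 34.0 CPM in J2, and 2 of those 14, Lum and Kdr, were at 0 in both inputs. The part of these cells in the results was not tested, and in bulk tissue fewer cells of a type and less RNA per cell cannot be told apart.

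J2 libraries differed from input over most of the transcriptome. Of 14770 genes tested, 9745 (66.0%) passed an adjusted p of 0.05 in edgeR's quasi-likelihood test, 4808 of them higher in J2 (32.6%) and 4937 lower (33.4%). Because so many genes pass, a second rule that also asks for a change of at least 2-fold is given beside it. It was added after the counts of calls had been seen, and it left 2670 genes higher (18.1%) and 3014 lower (20.4%). CPM of single genes are counts scaled to the effective library size, TMM included. The CPM values of the 2 J2 libraries and the 2 inputs did not overlap for 12375 genes (83.8%). All adjusted p-values below come from the same edgeR test unless another is named, fold changes are log2 values of J2 against input with their standard error (SE), and the median over all genes tested was −0.06. The split into higher and lower depends on scaling: without TMM, the trimmed-mean factor that aligns library compositions, the median of all genes moves to −0.42 and 32.9% of the calls are higher, against 49.3% with it. Directions of single genes and lists are therefore relative to the other genes of the library. The number of calls also differed between fits that take other libraries and test other genes. It was 4747 of 15923 (29.8%) in a fit that adds the 4 input and J2 libraries of the mutant animals. When control animal 1 or control animal 2 was left out of that fit, all mutant libraries stayed. Each control group then held 1 library, so the spread came from the mutant libraries alone. The median of all genes was −0.07 without animal 1 and −0.05 without animal 2.

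**Figure D1:**
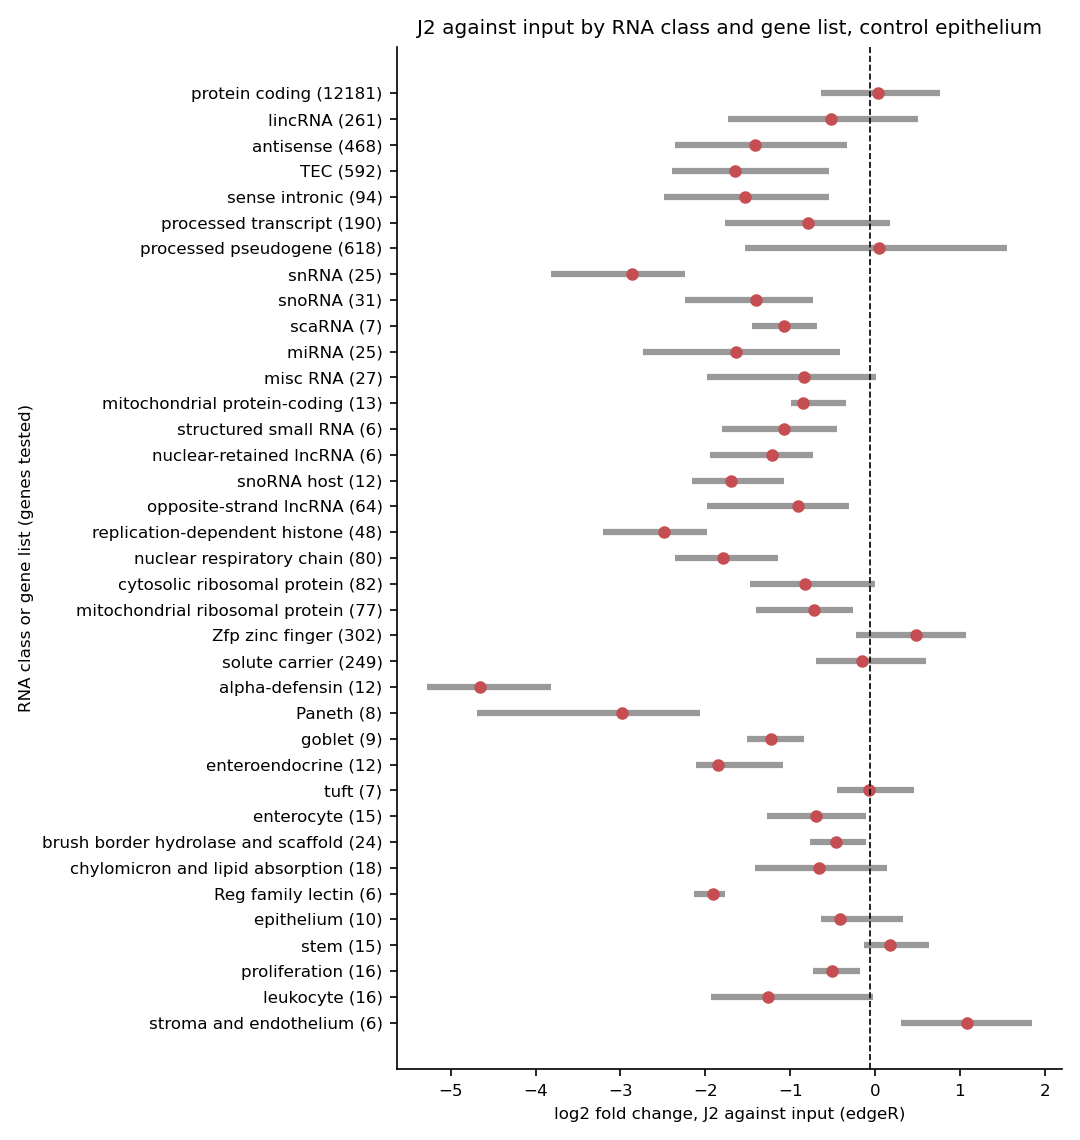
Log2 fold change of J2 against input for RNA classes and gene lists, with the number of genes tested in parentheses; points are medians, bars run from the lower to the upper quartile, and the dashed line is the median of all genes tested (−0.06). The α-defensins (−4.66), snRNAs (−2.86) and replication-dependent histones (−2.49) lie far to the left, while Zfp zinc finger genes (0.49) lie to the right.

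Among called genes averaging 50 counts or more, leaving out symbols of the Gm and Rik kind, the 12 most enriched by J2 included the 2 mitochondrial ribosomal RNAs and protein-coding genes. The rule for these 12 also required the same direction in both animals and no overlap of CPM between input and J2. The average covers J2 and input together, so a gene low in input can reach it through its J2 counts. With all symbols kept and no call required, 7 of the 25 highest genes at this count level were protein-coding, 4 had a transcript longer than the median of such genes (3495 bases), and their own median was 1582 bases. The large ribosomal RNA mt-Rnr2 (chrM:1094-2675) was at 8.23 and 15.3 CPM in the inputs and at 678 and 1005 CPM in J2, a log2 fold change of 6.15 ± 0.33 (SE, adjusted p = 9.01e-06). Mitochondrial 12S RNA, mt-Rnr1 (chrM:70-1024), rose from 3.48 and 10.0 to 64.4 and 83.2 CPM, or 3.43 ± 0.38. Both J2 libraries lay far above both inputs for each of them. The libraries were depleted of ribosomal RNA, so the levels of these genes are those that remained after depletion, and the extent of depletion in input and pulldown cannot be told apart from the pulldown itself.

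Rpa1 (chr11:75298166-75348324), the large subunit of the single-strand DNA binding protein RPA, was at 18.6 and 20.2 CPM in input and at 310 and 326 CPM in J2 (4.03 ± 0.10, adjusted p = 4.56e-06). Ovca2, a serine hydrolase gene on the same chromosome (chr11:75175942-75178835), went from 2.55 and 2.02 to 67.1 and 75.4 CPM (4.96 ± 0.15). The Ovca2 value is uncertain, since the gene shares 969 exonic bases with Dph1 on its own strand and overlaps 1700016P03Rik on the other. Wdr76, a WD-repeat protein gene, rose from 9.17 and 10.0 to 130 and 137 CPM (3.79 ± 0.11). Hipk2, which encodes a homeodomain-interacting protein kinase, was already abundant in input at 508.4 and 554.1 CPM and reached 6431 and 7684 CPM in J2 (3.73 ± 0.14). For all 4 genes the groups were separated by more than 10-fold. Bri3bp (3.76), Zfp652 (3.43), Slc35e2 (3.41) and Cbx5 (3.40), which encodes the heterochromatin protein HP1α, completed the upper end together with the cyclin gene Ccni (3.68) and the pseudogene Rpl3-ps2 (3.47). Of the Ccni transcript 33.5% is near-identical to another gene, and of Rpl3-ps2 100%, so reads of these 2 may be divided between copies.

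The 12 lowest genes by the same rule included α-defensins, genes of the respiratory chain and ATP synthase, and histones. Defa3, an α-defensin, a microbicidal peptide of Paneth granules, fell from 39.98 and 44.84 CPM in input to 0.731 and 0.951 CPM in J2 (−5.65 ± 0.18, adjusted p = 4.56e-06). Its relative Defa17 went from 202 and 265 to 5.63 and 7.61 CPM (−5.15 ± 0.20). Defa30 (−4.79), Defa5 (−4.66), Defa24 (−4.66) and Defa26 (−4.47) fell to a like extent, and each is at least 94.7% near-identical to another gene, so the split of reads among defensins is uncertain. Cox7a2, a small subunit of cytochrome c oxidase, was at 126 CPM in both inputs and at 4.24 and 7.09 CPM in J2 (−4.49 ± 0.20). Clps, the cofactor of pancreatic lipase, went from 62.0 and 79.8 to 2.93 and 4.58 CPM (−4.25 ± 0.22). The ATP synthase subunit gene Usmg5 (−4.06) and the histone genes Hist1h4a (−3.97) and Hist1h4c (−3.89) followed, and Angptl2, a secreted angiopoietin-like protein gene, fell from 11.63 and 10.96 to 0.804 and 0.173 CPM (−4.43 ± 0.38).

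**Figure D2:**
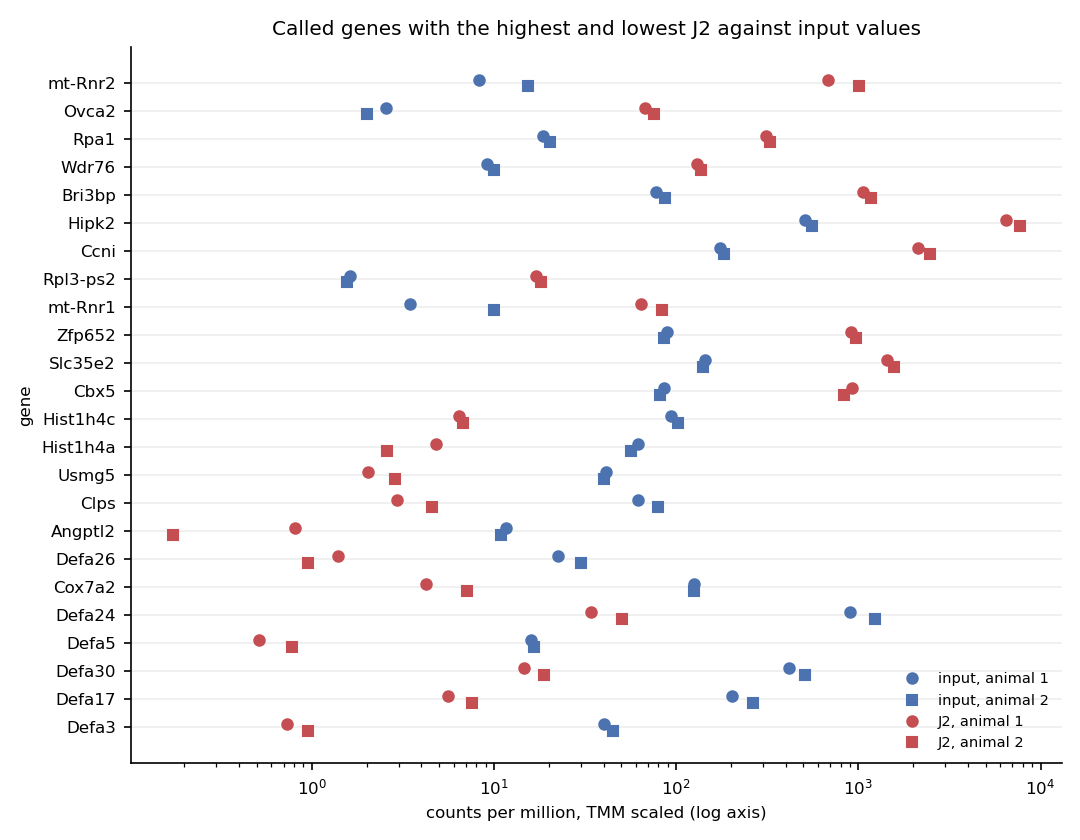
CPM on a log axis of the 12 called genes with the highest and the 12 with the lowest J2 against input values among those averaging 50 counts or more, with Gm and Rik symbols left out; blue marks are the 2 inputs and red marks the 2 J2 libraries, circles animal 1 and squares animal 2. The genes were chosen to have the same direction in both animals and no overlap of the groups, so their separation is set by that choice. Of all genes tested, 83.8% had no overlap. For scale, mt-Rnr2 rises from 8.23 and 15.3 to 678 and 1005 CPM.

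Inverted repeats within the transcript were searched because they can fold into the duplex that J2 binds. An inverted repeat was called where a stretch of at least 50 bases of a gene's longest annotated transcript matched the reverse complement of another stretch of the same transcript at 75% identity or more. Of the 10 genes with such a repeat among the 50 most enriched with a mean of at least 50 counts, the arms of 6 are shown as examples. Those of Xpnpep3, Deptor, Rnf168 and Gm42729 are not shown. Whether the stems account for the J2 values was not tested. Each line gives the best-paired 30-base window of an arm, 5′ to 3′ along the transcript from GENCODE M21 (GRCm38), with capitals for bases that pair with the other arm and lower case for the remainder. For Rpa1 (chr11:75301011-75301040 and chr11:75300554-75300583, minus strand, 26 of 30 bases paired), Bri3bp (chr5:125457217-125457246 and chr5:125459333-125459362, plus strand), Slc35e2 (chr4:155621115-155621144 and chr4:155622280-155622309, plus strand) and AU022252 (chr4:119224140-119224169 and chr4:119223513-119223542, minus strand) both arms lie in the 3′ untranslated region. The antisense RNA 2810402E24Rik (chr14:20642804-20642833 and chr14:20643137-20643166, plus strand) and the processed transcript Gm11613 (chr11:97646454-97646483 and chr11:97645541-97645570, minus strand, 30 of 30 paired) have no coding sequence.
Rpa1, arm 1: ATTtTGTTATCTTCAAACAGaaATTaTGTC
Rpa1, arm 2: GACAcAATccCTGTTTGAAGATAACAgAAT
Bri3bp, arm 1: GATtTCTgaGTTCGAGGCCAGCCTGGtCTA
Bri3bp, arm 2: TAGcCCAGGCTGGCCTCGAACctAGAgATC
2810402E24Rik, arm 1: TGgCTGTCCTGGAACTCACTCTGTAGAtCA
2810402E24Rik, arm 2: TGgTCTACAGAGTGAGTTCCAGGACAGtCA
Gm11613, arm 1: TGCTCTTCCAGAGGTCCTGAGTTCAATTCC
Gm11613, arm 2: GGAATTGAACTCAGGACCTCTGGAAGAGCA
Slc35e2, arm 1: aAGTTCCAGGACAGCCAgGGCaACACAGAG
Slc35e2, arm 2: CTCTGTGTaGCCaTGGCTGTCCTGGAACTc
AU022252, arm 1: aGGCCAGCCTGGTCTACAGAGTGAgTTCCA
AU022252, arm 2: TGGAAtTCACTCTGTAGACCAGGCTGGCCa

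The full stems are longer than the windows: 125 bases in Rpa1 (79.2% identity, arms 300 bases apart), 83 in Bri3bp, 123 in 2810402E24Rik, 141 in Gm11613, 169 in Slc35e2 and 115 in AU022252. Over all 393 genes with an inverted repeat, the arms of 356 (90.6%) matched an arm of another gene over at least 40 bases, and shared matches joined 352 of them in 1 group. Rpa1 was outside that group and matched no other arm. The arms were not compared with a library of repeat families.

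Bri3bp, which encodes a mitochondrial membrane protein, rose from 77.7 and 87.3 CPM in input to 1060 and 1181 CPM in J2. Slc35e2, a putative nucleotide-sugar transporter gene, rose from 144 and 141 to 1442 and 1580 CPM. The noncoding 2810402E24Rik went from 3.82 and 4.12 to 47.8 and 54.6 CPM (3.68 ± 0.14), and Gm11613 from 0.679 and 0.544 to 6.95 and 8.21 CPM (3.61 ± 0.28). Input and J2 did not overlap for any of these 4, which the rule of choice required for Bri3bp and Slc35e2. Of all genes tested, 83.8% had no overlap. Further down the same 50 genes stood AU022252 (3.39), Xpnpep3 (3.39), a mitochondrial peptidase gene, Deptor (3.37), an inhibitor of mTOR, and Rnf168 (3.33), a ubiquitin ligase of the DNA damage response.

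Inverted repeats were more frequent toward the top of the ranking. Among 10193 genes with a mean of at least 50 counts, ranked by log2 fold change, 4 of the first 25 (16%) and 6 of the next 25 (24%) held one, against 308 of all ranked genes (3.02%). The share was 8% for ranks 51 to 100, 10% for ranks 101 to 200 and 5% for ranks 201 to 400. It was 2.13% for ranks 3201 to 6400 and 2.48% for the lowest 3793 genes. The mean count covers J2 and input together, so a gene low in input can enter the ranking through its J2 counts. Rpl3-ps2, among the first 25, had 19 and 20 counts in input and 234 and 211 in J2. Of the first 25 genes 7 were protein-coding, against 9719 of all 10193. The part of this filter in the shares by rank was not tested. Since longer transcripts have more room for a repeat, the middle of the highest 100 by length (1533.5 to 6302.5 bases) was set against other genes within that range. Lengths were not matched inside the range, so a difference in length can remain. Of those 50 transcripts 9 (18%) held an inverted repeat, against 194 of 7602 (2.55%) at other ranks.

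**Figure D3:**
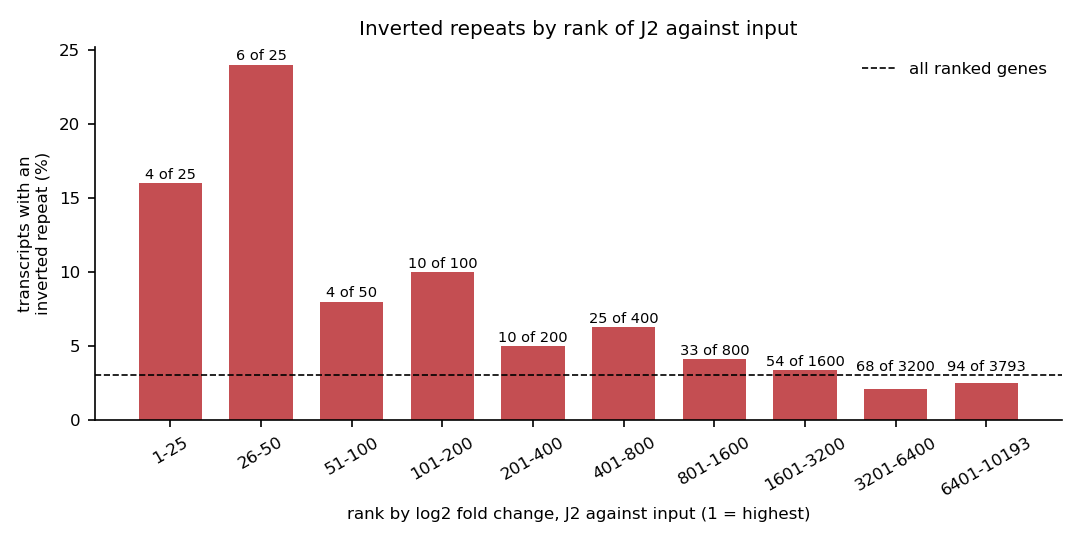
Share of transcripts with an inverted repeat of at least 50 bases by rank of J2 against input, for 10193 genes with a mean of at least 50 counts; counts stand over the bars and the dashed line marks all ranked genes (3.02%). The first 2 bars, at 16% and 24%, are the tallest, and the bars beyond rank 3200 lie under the line. The mean count includes the J2 libraries, so genes low in input can enter through J2.

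Taken over all genes searched, the 393 with an inverted repeat had a median log2 fold change of 0.51, and the 14338 without one −0.07. At least 2-fold higher were 33.1% and 17.7% of the 2 sets, and at least 2-fold lower 9.41% and 20.7%, beside 18.1% and 20.4% of all genes tested. The 212 genes with a stem of 100 bases or more had a median of 0.63. After a loess correction for GC content and transcript length together, the difference between the medians was 0.25 in place of 0.58. In the longest quartile of transcripts, genes with and without a repeat had medians of 0.71 (211 genes) and 0.70. In the second quartile the medians were 0.30 (58 genes) and −0.31, and in the third 0.15 (115 genes) and 0.10. Only 9 genes of the shortest quartile held a repeat (0.75 against −0.85), which is too few to describe that class.

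Both arms lay in the 3′ untranslated region in nearly all transcripts with a coding sequence, 182 of 193 over all genes with a repeat and 95 of 100 among those at least 2-fold higher. Transcripts without a coding sequence made up 200 of the 393 genes with a repeat and 30 of the 130 that were at least 2-fold higher. Of those 200, 125 belong to protein-coding genes whose longest annotated transcript has no coding sequence. Over all 318 protein-coding genes with a repeat, both arms lay in the 3′ untranslated region in 182 (57.2%). The 14 genes with a repeat in the highest 100 had stems of 83 to 169 bases, 77.1% to 87.9% identity, and arms 163 to 2777 bases apart. Medians were 0.56 for 45 genes with arms under 300 bases apart, 0.74 for 146 genes with arms 300 to 1000 apart, and 0.40 for 202 genes with arms farther apart. Values were lower where the arms were more alike. By arm identity the medians were 0.64 at 75% to 80% (172 genes), 0.47 at 80% to 85% (135 genes) and 0.28 from 85% (86 genes). At least 2-fold higher were 39.5%, 29.6% and 25.6% of these sets. A long stem did not by itself go with the highest values. Fam111a, a protease gene with the longest stem (642 bases) among called protein-coding genes, was at 4.84 and 5.28 CPM in input and 13.5 and 9.94 CPM in J2 (1.22 ± 0.20). Eapp (1.80) and Tmem245 (1.72) have stems of 202 and 203 bases.

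J2 against input values rose with transcript length by quartile, although the 25 highest genes had a median of only 1582 bases (above). From the shortest to the longest quartile of transcripts the medians were −0.85, −0.31, 0.10 and 0.70, with quartiles divided at 1865, 3065 and 4545 bases. At least 2-fold higher were 9.36%, 9.26%, 17.6% and 36.1% of the genes of each quartile, and at least 2-fold lower 43.5%, 21.2%, 11.9% and 4.89%. Protein-coding genes alone gave medians of −0.68, −0.12, 0.22 and 0.78. The Spearman correlation across 14731 genes was 0.467 with length and 0.0453 with GC content, which describes genes that share the same 4 libraries and is no test. With the mean count over the 4 libraries it was 0.368, and with exon number 0.259. From the lowest to the highest quartile of mean count the medians were −0.71, −0.27, 0.07 and 0.52. The mean count includes the J2 counts, so its correlation and this order are in part set by how it is measured. Medians by quartile of GC content ran from −0.17 to 0.02, a far smaller range than for length. When lengths were taken from the union of exons, the longest quartile exceeded the shortest by 1.35 in place of 1.55. A direct comparison of J2 with K1, which shares the purification of the pulldowns and leaves out the inputs, showed a length order as well, with medians of −0.39, −0.15, 0.03 and 0.23.

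**Figure D4:**
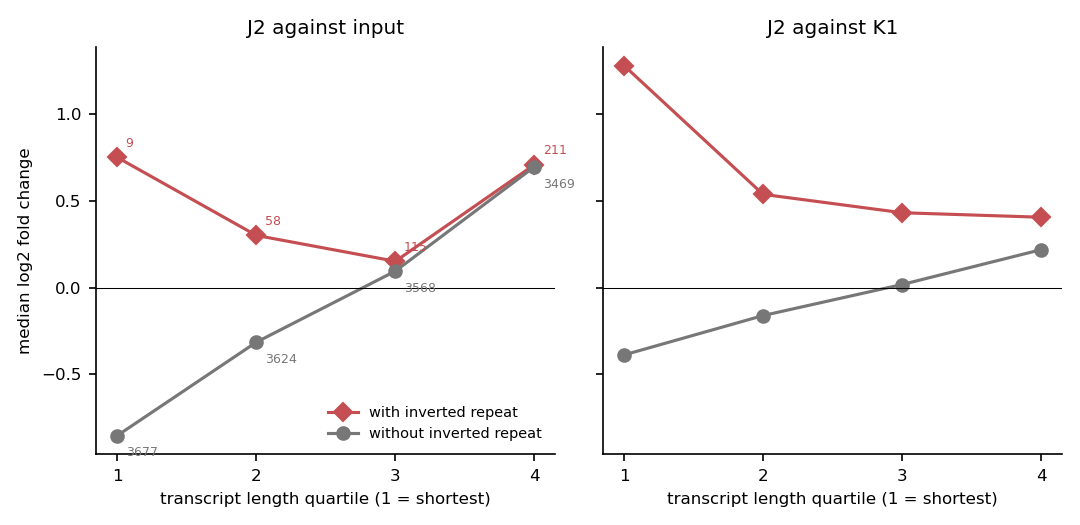
Median log2 fold change by quartile of transcript length (1 is the shortest) for genes with (red) and without (grey) an inverted repeat, in J2 against input at left, with the number of genes at each point, and in J2 against K1 at right. Grey medians rise from −0.85 to 0.70 at left, and at right the red medians lie above the grey in each quartile.

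Protein-coding transcripts took a larger part of J2 libraries, 96.7% and 96.8% of gene-assigned counts against 92.9% and 92.3% in input. With 2 libraries against 2 the exact two-sided permutation test cannot go below p = 0.333, and it gave that value for this share and for each share below. Long intergenic RNAs took 3.80% and 4.33% of input and 1.31% and 0.952% of J2. Small nucleolar RNAs went from 0.0255% and 0.0295% to 0.00678% and 0.00639%, and small nuclear RNAs from 0.0143% and 0.0141% to 0.00281% and 0.00268%. Mitochondrial ribosomal RNA moved the other way, from 0.00134% and 0.00284% to 0.0661% and 0.0946%. Shares of the 2 groups did not overlap in any of these 5 classes. Among single genes tested, CPM did not overlap for 83.8%.

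Gene by gene, the 12181 protein-coding genes tested had a median of 0.04, which turned negative without TMM (−0.32) and after GC and length correction (−0.03). All other classes together (2589 genes) had a median of −0.96, with 480 called higher (18.5%) and 1307 lower (50.5%). For the counts of calls here and below, the shares over all genes tested are 32.6% higher and 33.4% lower. Of the TEC class, loci whose transcription still awaits experimental evidence, 52 of 592 were higher and 392 lower (median −1.65). Among antisense genes 40 of 468 were higher and 285 lower (−1.41), and among sense-intronic RNAs 9 of 94 and 58 (−1.53). Long intergenic RNAs were more mixed, with 51 of 261 higher and 109 lower (−0.51). Processed pseudogenes had 222 of 618 higher (35.9%) and 192 lower (31.1%), near the shares of all genes tested. Their median of 0.04 became −0.32 without TMM. Their reads may come from the parent mRNA, since the copies are often near-identical.

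Small structured RNAs were mostly lower in J2. Of 25 small nuclear RNA genes tested, 23 fell and 0 rose (median −2.86). Small nucleolar RNAs, which guide the modification of ribosomal RNA, had 20 of 31 lower and 3 higher (−1.40), and Cajal body RNAs 5 of 7 lower (−1.07). The medians of both turned positive, to 0.06 and 0.14, after the GC and length correction, and that of the small nuclear RNAs became −1.48. Snora23 was at 46.9 and 63.2 CPM in input and 13.7 and 14.3 CPM in J2 (−1.98 ± 0.16). Scarna2 fell by 0.97. The random-hexamer libraries hold few fragments of such short RNAs, and only 25 of 1385 small nuclear and 31 of 1507 small nucleolar RNA genes reached the count filter, so these are the abundant members only.

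RNA polymerase III products did not move together. Rn7sk, which sequesters the elongation factor P-TEFb, fell from 12753 and 14052 to 2972 and 3491 CPM (−2.05 ± 0.14). The signal recognition particle RNAs Rn7s1 (−1.47) and Rn7s2 (−1.91) fell as well, although each is 100% near-identical to other genes. Rpph1, the RNA subunit of RNase P, was at 3715 and 3939 CPM in input and 4423 and 5910 CPM in J2 (0.43 ± 0.16, adjusted p = 0.0441). That call was lost without J2 library 2 (0.24, adjusted p = 0.0985), input library 1 (0.40, 0.102) or input library 2 (0.48, 0.0536), and without TMM the value was 0.07. Of the Rpph1 transcript 73.0% is near-identical to Ccnb1ip1, which it overlaps on the same strand by 233 bases, and of Rn7sk 72.8% to other genes, so their counts are uncertain as well. Of 6 such RNAs tested out of 10 listed, 1 was higher and 3 were lower (median −1.07, or 0.13 after GC and length correction). MicroRNA loci had 17 of 25 tested lower and 4 higher (−1.64), and the miscellaneous RNA class 12 of 27 lower and 4 higher (−0.84, or 0.25 after correction).

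Long RNAs that stay in the nucleus were lower in J2, with Tug1 apart from the others. Xist, the RNA that coats the inactive X chromosome, went from 840 and 858 to 100.8 and 84.71 CPM (−3.19 ± 0.11). Neat1, the scaffold of paraspeckles, fell from 270 and 239 to 61.6 and 59.6 CPM (−2.07 ± 0.10), although its transcript holds an inverted repeat of 75 bases. Malat1 of nuclear speckles fell by 1.56, Firre by 0.86 and the imprinted antisense RNA Kcnq1ot1, with a stem of 143 bases, by 0.69. Tug1, annotated on chr11:3639785-3649673 opposite Morc2a, rose from 71.2 and 75.3 to 591.4 and 524.1 CPM (2.93 ± 0.10). Counting without strand cannot separate reads of Tug1 from reads of Morc2a where they overlap. Of 8 listed RNAs 6 were tested, of which 1 was higher and 5 were lower. Host genes of small nucleolar RNAs had 10 of 12 tested lower and 0 higher (median −1.70), with Gas5 at −2.35 and Zfas1 at −2.09.

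Overlap of exons with a gene on the other strand went with little difference in gene counts. Those counts leave out ambiguous reads, which fit several genes (3.86% and 4.14% of listed reads in input, 3.65% and 4.03% in J2). Without strand, reads within such an overlap are ambiguous, so the values cannot show whether the overlapping bases were enriched. The 4446 genes with such an overlap had a median of −0.03 and the 10291 without one −0.07, and 17.3% and 18.4% of them were at least 2-fold higher. Of 290 annotated opposite-strand RNAs named for their partner gene, 64 were tested, and 5 were higher and 32 lower (median −0.91).

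Transcripts of the mitochondrial genome differed from one another. The chromosome as a whole took 4.33% and 4.23% of gene-assigned counts in input and 2.20% and 2.77% in J2. Of its 13 protein-coding genes 2 were higher, 8 lower and 3 passed in neither direction (median −0.85). The 2 that rose are neighbours on opposite strands: mt-Nd5 (chrM:11742-13565) and mt-Nd6 (chrM:13552-14070), the only protein-coding gene on the minus strand, which overlap by 14 bases. Both encode subunits of respiratory complex I. The first rose from 4184 and 3871 to 8494 and 11955 CPM (1.34 ± 0.18, adjusted p = 6.11e-04), and mt-Nd6 from 582 and 532 to 2071 and 3047 CPM (2.20 ± 0.19, adjusted p = 6.80e-05). Next to them mt-Cytb, of complex III, fell from 6143 and 6295 to 982 and 1061 CPM (−2.61 ± 0.11). In all 3 the J2 values lay outside the range of the inputs in both animals, as they did for 83.8% of all genes tested. Counts were made without strand, so reads over mt-Nd6 may come from RNA of either strand. The same holds for the other mitochondrial genes.

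The cytochrome oxidase gene mt-Co1 fell from 16176 and 16580 to 5737 and 6471 CPM (−1.42 ± 0.14), and mt-Nd4 from 2739 and 2650 to 808 and 1056 CPM (−1.53 ± 0.14). Smaller decreases passed for mt-Co2 (−0.85), mt-Atp6 (−0.71), mt-Atp8 (−0.99), mt-Nd3 (−0.99) and mt-Nd4l (−0.99). Not passing were mt-Nd1 (−0.19, adjusted p = 0.208), mt-Nd2 (−0.42, 0.0554) and mt-Co3 (−0.34, 0.0640). With the animal as a block these 3 passed (adjusted p = 0.0331, 9.75e-08 and 7.54e-06), in a fit with 1 residual degree of freedom. Several directions turned with the correction for GC content and length: after it the median of the 13 genes was 0.60, and mt-Nd1 (1.09), mt-Nd2 (0.93), mt-Co3 (0.95), mt-Co2 (0.49), mt-Atp6 (0.74), mt-Atp8 (0.58), mt-Nd3 (0.60) and mt-Nd4l (0.39) were positive. The signs of mt-Nd5, mt-Nd6, mt-Cytb, mt-Co1 and mt-Nd4 did not turn, although mt-Co1 was then at −0.46 and mt-Nd4 at −0.28 and no longer passed (adjusted p = 0.203). Reads of mt-Co1, mt-Co2, mt-Atp6, mt-Co3, mt-Nd3 and mt-Nd4l are also uncertain, because at least 99.0% of each is near-identical to another annotated gene.

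**Figure D5:**
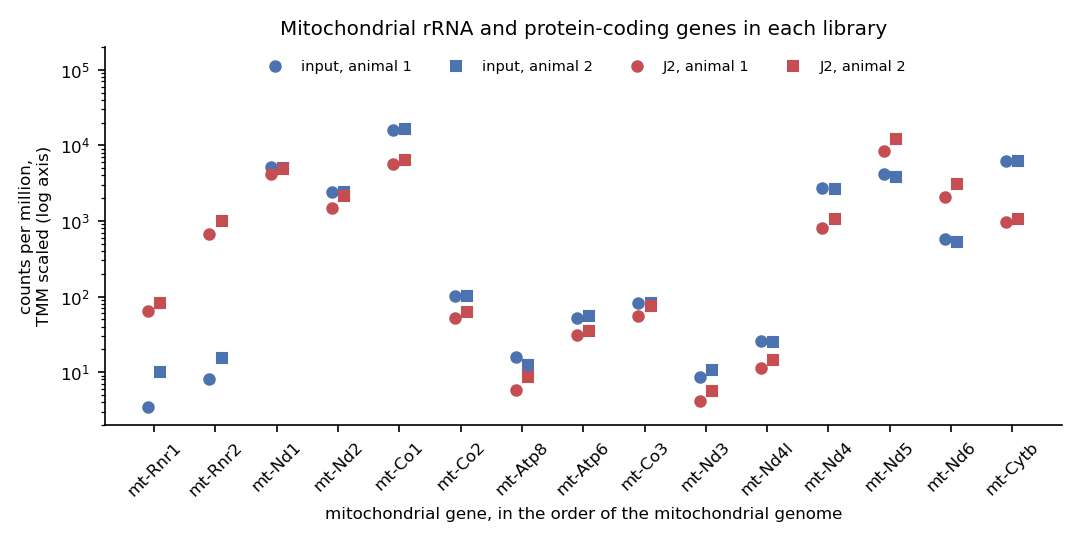
CPM on a log axis of the 2 ribosomal RNAs and 13 protein-coding genes of the mitochondrial genome in genome order; blue marks are inputs, red marks J2, circles animal 1 and squares animal 2. The ribosomal RNAs, mt-Nd5 and mt-Nd6 are higher in J2, and the adjoining mt-Cytb is lower at 982 and 1061 CPM.

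Short, abundant messenger RNAs of housekeeping complexes were lower as groups. Replication-dependent histone genes, whose mRNAs end in a stem-loop instead of a poly(A) tail, had 46 of 48 tested lower and 0 higher, 43 of them at least 2-fold (median −2.49). Their share of counts went from 0.314% and 0.273% to 0.0611% and 0.0516%. Hist1h4c, below the lower quartile of the list (−3.20), was at 94.0 and 102 CPM in input and 6.44 and 6.74 CPM in J2. Hist1h1d, a linker histone gene annotated with a far longer transcript, was at 128 and 107 CPM in input and 126 and 103 CPM in J2 (−0.04 ± 0.13, adjusted p = 0.783). Its relative Hist1h1e fell by 0.51, a call lost without J2 library 2 (−0.41, adjusted p = 0.0570). After GC and length correction the median of the list was −1.57.

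Nuclear genes of the respiratory chain had 76 of 80 tested lower and 1 higher (median −1.79, or −1.01 after correction), and 62 fell at least 2-fold. Cox7a2 (above) and the complex I gene Ndufb4 (15.4 and 16.3 CPM in input, 0.951 and 1.56 CPM in J2, −3.67) are at the lower end. The gene that rose is Cox7a2l, which takes part in the assembly of respiratory supercomplexes, from 63.9 and 69.9 to 93.7 and 114 CPM (0.63 ± 0.12). Sdha, the catalytic subunit of succinate dehydrogenase, with a longer transcript, was at 373 and 367 CPM in input and 358 and 353 CPM in J2 (−0.06 ± 0.08, adjusted p = 0.546).

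Cytosolic ribosomal protein genes were divided, with 16 of 82 tested higher and 56 lower (median −0.83, or −0.18 after correction). Rpl3 rose from 280 and 269 to 806 and 835 CPM (1.58 ± 0.09). Rps26 fell from 153 and 167 to 16.2 and 15.9 CPM (−3.31 ± 0.10) and Rpl27 from 125 and 128 to 14.1 and 13.1 CPM (−3.21 ± 0.10). These groups are well separated in both directions, but pseudogene copies cover 64.7% of the Rpl3 transcript, 22.6% of Rps26 and 56.1% of Rpl27. The translation elongation factor gene Eef1a1 rose from 2934 and 3091 to 9059 and 10546 CPM (1.70 ± 0.13), with 87.6% of its transcript near-identical to other genes. Mitochondrial ribosomal protein genes had 5 of 77 higher and 50 lower (−0.71), from Mrpl42 at −2.85 to Mrpl45 at 0.66.

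Zinc finger genes of the Zfp series, many of which encode repressors of transposable elements, were more often higher. Of 302 tested out of 391 listed, 139 were higher (46.0%) and 41 lower (13.6%), against 32.6% and 33.4% of all genes tested. At least 2-fold were 84 (27.8%) and 20 (6.62%), against 18.1% and 20.4%. The median was 0.49. It was 0.32 after GC and length correction and 0.12 without TMM. Their share of counts rose from 0.484% and 0.482% to 0.861% and 0.864%. Zfp652 went from 88.9 and 85.3 to 909 and 966 CPM and Zfp874b from 3.23 and 2.64 to 25.3 and 30.9 CPM (3.26 ± 0.18). Zfp950 fell by 1.61. Solute carriers, the transporters of sugars, amino acids and ions, had 76 of 249 higher (30.5%) and 84 lower (33.7%), close to the 32.6% and 33.4% of all genes tested (median −0.15). They ran from Slc5a3, the myo-inositol transporter, at 2.58 and Slc35e2 at 3.41 to Slc13a2, a dicarboxylate transporter, at −2.11 among genes with a mean of at least 50 counts.

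Markers of the secretory lineages were mostly lower in J2. All 8 Paneth cell markers were lower (median −2.98), and all 12 α-defensins that were tested out of 22 (−4.66). Lyz1, the lysozyme gene of the same cells, was at 1350 and 1439 CPM in input and 1180 and 1107 CPM in J2 (−0.29 ± 0.10, adjusted p = 0.0329). Its call was lost on leaving out any of the 4 libraries (adjusted p from 0.0617 to 0.204), and its value turned to 0.41 after GC and length correction. Itln1, a lectin gene, fell by 1.83. Summed Paneth markers, scaled without TMM, went from 4167 and 4828 CPM to 1278 and 1189 CPM, and single genes spanned from −5.15 to −0.29.

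Goblet cell markers had 7 of 9 tested lower and 0 higher (−1.22). Spink4, a small secreted protease inhibitor, fell from 280 and 254 to 36.2 and 38.4 CPM (−2.84 ± 0.10), and Agr2, a disulfide isomerase for mucin folding, fell by 1.99. The gel-forming mucin gene Muc2 was at 1801 and 1839 CPM in input and 2201 and 2127 CPM in J2 (0.25 ± 0.10, adjusted p = 0.0533), and −0.12 without TMM. It passed with the animal as a block (adjusted p = 0.00253). Enteroendocrine markers had 11 of 12 lower (−1.85), among them the hormones Nts (−3.61) and Sct (−2.36), and Tph1, the enzyme of serotonin synthesis, did not pass (−0.19, adjusted p = 0.356). Of 7 tuft cell markers tested, 2 were higher and 1 lower (−0.07). Dclk1, a kinase gene with a long transcript, rose from 15.8 and 19.3 to 69.7 and 62.3 CPM (1.91 ± 0.13), and Sh2d6, an adaptor gene, fell by 1.34.

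Enterocyte markers had 10 of 15 lower and 1 higher (−0.70). The gene that rose is Apob, the structural protein of chylomicrons, from 7586 and 8679 to 10618 and 10559 CPM (0.38 ± 0.13, adjusted p = 0.0371). That call was lost without J2 library 1 (0.41, adjusted p = 0.0502) or input library 1 (0.30, 0.212), and the value was 0.02 without TMM and −0.61 after GC and length correction. Its loading partner Mttp did not pass (0.14, adjusted p = 0.315, and −0.23 without TMM). The fatty acid binding protein genes Fabp2 (1030 and 1472 CPM in input, 166 and 229 CPM in J2, −2.66) and Fabp1 (−2.09) fell. Over 18 genes of lipid absorption 3 were higher and 10 lower (−0.66). Brush border hydrolases and scaffold proteins had 1 of 24 higher and 17 lower (−0.46): sucrase-isomaltase, Sis, fell from 3504 and 3498 to 1299 and 1142 CPM (−1.52 ± 0.11) although its transcript is long, and the myosin gene Myo7b rose by 0.63, with −0.23 after correction.

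General epithelial markers had 3 of 10 higher and 6 lower (−0.41), with the transcription factor gene Cdx1 at 1.29 and the junction and adhesion genes Cldn7 at −1.56 and Epcam at −1.32. Stem cell markers had 6 of 15 higher (40%) and 3 lower (20%), against 32.6% and 33.4% of all genes tested. Their median of 0.18 became −0.18 without TMM. The ubiquitin ligase gene Znrf3, which limits Wnt receptors, rose by 1.26 and Olfm4 fell by 1.04. Proliferation markers had 1 of 16 higher and 9 lower (−0.51). The one that rose, Mki67, has a long transcript and went from 233 and 200 to 494 and 480 CPM (1.168 ± 0.10, or 0.11 after GC and length correction), while Pcna, the sliding clamp of DNA replication, fell from 33.4 and 36.6 to 7.09 and 5.96 CPM (−2.42 ± 0.14). Leukocyte markers had 10 of 16 lower and 1 higher (−1.26). They ran from Gzma, a protease gene of intraepithelial lymphocytes, at −3.53, to Ighm at 1.45, the gene that rose. Among genes that did not pass was Cd8a at 0.25 (adjusted p = 0.130, or 0.0263 with the animal as a block, and −0.11 without TMM).

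Antimicrobial lectins of the Reg family had 5 of 6 tested lower and 0 higher (−1.91). The 2 animals differed in these genes before any pulldown. Reg3b was at 4554 CPM in the input of animal 1 and 1364 CPM in that of animal 2, and at 1130 and 559 CPM in their J2 libraries (−1.81 ± 0.55, adjusted p = 0.0239). For Reg3g the inputs were at 2967 and 629 CPM and the pulldowns at 469 and 324 CPM (−2.18 ± 0.63, adjusted p = 0.0186). Without J2 library 2 neither passed (adjusted p = 0.127 and 0.104), and without J2 library 1 Reg3g did not pass either (0.0581). Both also missed the threshold in DESeq2 (adjusted p = 0.125 and 0.0720). Reg4 was alike in both animals (71.4 and 93.3 CPM in input, 18.1 and 17.4 CPM in J2, −2.22 ± 0.15).

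K1 was set against the same inputs, so its values and those of J2 are not independent and are given side by side. Against input, K1 called 8780 of 14841 genes (59.2%). The median was −2.49 in J2 and −0.88 in K1 for histones, −1.79 and −0.87 for the nuclear respiratory chain, and −0.83 and −0.06 for cytosolic ribosomal proteins. For long intergenic RNAs it was −0.51 in J2 and −1.29 in K1, for antisense genes −1.41 and −2.60, for TEC loci −1.65 and −2.95, and for mitochondrial protein-coding genes −0.85 and −1.59.

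The 2 antibodies were also compared directly, in a fit of the 4 pulldown libraries that uses no input. Of 13617 genes, 5147 passed (37.8%), 2382 higher in J2 (17.5%) and 2765 lower (20.3%). With the animal as a block 8422 passed. Differences below are log2 values of J2 minus K1. The nuclear RNAs Malat1 (1.70), Kcnq1ot1 (1.56), Tug1 (1.55), Xist (1.47) and Neat1 (1.27) were each higher in J2 (adjusted p from 0.00250 to 0.00394). Histone genes differed the other way, for example Hist1h1d (−1.64) and Hist1h4c (−1.50), and so did Snora23 (−2.16, adjusted p = 0.0100) and Rpph1 (−1.30). All of these passed the edgeR test of the difference itself. Ovca2 (1.57), Ccni (1.55) and Hipk2 (1.21) were higher in J2 as well, as were Rpa1 (0.46, adjusted p = 0.0208) and mt-Rnr2 (0.61, adjusted p = 0.0418). Of 13 mitochondrial protein-coding genes the median difference was 0.95.

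Genes with an inverted repeat were more often higher in J2 than in K1: 148 of 385 tested (38.4%) were called higher and 38 (9.87%) lower, against 2220 (17.2%) and 2687 (20.9%) of 12877 without one. By quartile of length, from the shortest to the longest, the medians were 1.28, 0.54, 0.43 and 0.41 with a repeat and −0.39, −0.16, 0.02 and 0.22 without, where the first rests on 8 genes with a repeat. No p-value is given for these shares, since genes of the same libraries are not replicates.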

How the data were processed

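Per the labels, counts are whole numbers of read pairs per gene made without strand; the submitters' processing notes name STAR 2.7.10b, UMI-tools 1.1.4, HTSeq 2.0.2 and mm10/GRCm38.p4 without roles. The 48526 deposited gene rows were joined to GENCODE M21 by identifier (48144 matched). Rows of reads outside genes and of ambiguous reads were left out. Counts were tested in edgeR 4.0.16 (R 4.3.3) with TMM, filterByExpr (minimum count 10) and Benjamini-Hochberg adjustment, on 2 J2 and 2 input libraries with 2 residual degrees of freedom. DESeq2 1.42.0 and limma 3.58.1 were alternatives. Inverted repeats were found by blastn 2.17.0+ (word size 11, simple repeats masked). Near-identical means at least 97% identity over at least 100 bases.

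Members and lists were chosen with earlier results of these data known. Named genes are the 12 highest and 12 lowest called genes with a mean of at least 50 counts, without Gm, Rik or clone symbols; the 2 highest and 2 lowest per class or list; all mitochondrial genes; the 8 most abundant per kilobase in J2; and the 6 called protein-coding genes with the longest inverted repeats. The 12 highest and 12 lowest also had to show the same direction in both animals and no overlap of CPM between input and J2. Xpnpep3, AU022252, Deptor, Rnf168, Malat1 and Firre fall outside these rules and were chosen after their values were seen.

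Input and J2 share animals by the labels' animal tags (correlation of same-animal deviations 0.345). Replicates of a group were different libraries (chi-square per degree of freedom 14.2 in J2 and 11.0 in input). On simulated counts for 14770 genes the test recovered 75.3% of 2-fold and 95.7% of 4-fold changes, with 4 false calls. The simulation changed 200 genes and gave every gene the same dispersion (0.0119). In the data 66.0% of genes were called, so these rates need not hold there.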

Additional observations from a re-analysis of the deposited data

How the results depend on the processing

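Against 9745 calls, the fit of 8 libraries of both genotypes gave 4747 (2426 higher, 2321 lower), of which 4648 were among the 9745, and 29 of 94 named genes that passed did not pass there, among them mt-Nd5, mt-Co1, Malat1, Sis and Epcam. Without replicate 1 or replicate 2 of both genotypes the count ranged from 0 to 0, with 2262 and 2085 genes at an unadjusted p under 0.05, and for DESeq2 the lower genes numbered 3084. Leaving out 1 control library gave 8403 to 8698. Higher genes then numbered 4388 to 4542 and lower genes 4015 to 4257. The replicate block gave 11150, including all 9745, and 8422 for J2 against K1; among named genes it changed no calls but those given. The inverted-repeat difference (0.58) was 0.69 for stems of at least 100 bases, 0.63 with simple repeats kept and 0.25 with the GC content and length correction; the length difference (1.55) was 1.35 with the union of exons; the protein-coding share rose by 15.2 in place of 4.15 percentage points over all listed reads.

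Without TMM these medians or genes turned: protein-coding −0.32, processed pseudogenes −0.32, stem −0.18, Mttp −0.23, Muc2 −0.12, Cd8a −0.11. With the GC content and length correction, alone and with the replicate block, values turned to −0.0287 and −0.0301 (protein-coding), 0.059 and 0.0633 (snoRNA), 0.14 and 0.15 (scaRNA), 0.25 and 0.29 (misc_RNA), 0.60 and 0.62 (mitochondrial protein-coding), 0.13 and 0.17 (structured small RNA), −0.19 and −0.18 (stem), 1.09 and 1.08 (mt-Nd1), 0.93 and 0.90 (mt-Nd2), 0.49 and 0.48 (mt-Co2), 0.58 and 0.56 (mt-Atp8), 0.74 and 0.74 (mt-Atp6), 0.95 and 0.93 (mt-Co3), 0.60 and 0.62 (mt-Nd3), 0.39 and 0.38 (mt-Nd4l), 0.0778 and 0.085 (Scarna2), 0.0425 and 0.0426 (Sdha), −0.61 and −0.61 (Apob), −0.021 and −0.0247 (Mttp), −0.23 and −0.25 (Myo7b), and 0.41 and 0.41 (Lyz1). With 1 library left out, processed pseudogenes ranged from −0.18 to 0.33 (−0.14 without J2 library 1), tuft from −0.21 to 0.0106, Hist1h1d from −0.17 to 0.13 (0.0992 without input library 1) and Tph1 from −0.36 to 0.0246. Tuft was 0.0571 at a count minimum of 50, Sdha 0.0033 without a filter and 0.024 in DESeq2, and Hist1h1d 0.016 and 0.0354. The cause was not tested. The soft-masked repeat share and the GC content of joined exons were not run. Few snRNA, snoRNA and miRNA genes had enough counts to be tested.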
